A study of Homo sapiens with 9 samples.

Results

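The mRNA response of human melanoma cells to the higher dose of a miR-199a-3p mimic was measured on 6 whole-transcript arrays. They are 3 arrays of cells given the mimic at 0.5 nM and 3 arrays of cells given a control microRNA (ctrl miR) at 0.5 nM, so that both groups received the same total amount of small RNA. These 6 are of the 9 arrays in the series, and the remaining 3 hold cells given the mimic at 0.25 nM. All cells were WM266-4, an established line from a melanoma metastasis, here carrying GFP, and all were transfected with Lipofectamine 2000 and collected 48 h later. The labels call the samples of each group biological triplicates of 1 line, and replicates are cultures of that line. The comparison asks which transcripts differ between mimic and control at equal total small RNA. Array rows with exactly 1 gene symbol gave 14812 genes, of which 5588 had a mean log2 intensity above 7 over the 9 arrays. The text rests on those 5588, because dimmer rows scattered more widely.

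A microRNA guides an Argonaute protein to messenger RNAs that carry, mostly in the 3′ untranslated region, a match to its seed, the bases near its 5′ end. Partners of Argonaute of the GW182 family then recruit enzymes that shorten the poly(A) tail and remove the cap, so that transcripts with a site usually fall while other genes move indirectly. The 3p arm of miR-199a is abundant in mesenchymal cells, and in tumours it has been tied to growth factor receptors, adhesion and mTOR signalling.

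The sequences below show which part of the mimic's microRNA selects targets, with bases 2 to 8, the seed, in capitals. They are RefSeq's, printed 5′ to 3′.
miR-199a-3p: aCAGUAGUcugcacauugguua
miR-3129-5p: gCAGUAGUguagagauugguuu
miR-199a-5p: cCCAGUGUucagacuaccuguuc
On GRCh38.p14 the first is encoded on the minus strand by MIR199A2 at chr1:172144554-172144575 and by MIR199A1 at chr19:10817429-10817450, both as the 3p arm of a microRNA hairpin. The 3p arm of MIR199B at chr9:128244745-128244766 has the same 22 bases. Of 2545 mature entries in the table, 4 have the seed CAGUAGU, and the only one of other sequence is miR-3129-5p (chr2:189133082-189133103, minus strand). The opposite arm of the same hairpin, miR-199a-5p, has another seed. A transcript site that pairs with bases 2 to 8 of the mimic reads ACUACUG, and transcripts were not searched for it here. Array rows of the hairpin genes need not read a transfected mature mimic, so the arrays hold no direct check of its uptake.

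Several features of the values bear on every result. Within a group many genes had exactly equal values on all 3 arrays (33.7% of genes above 7 in control and 31.1% with the mimic), whereas no gene had an equal value on arrays of different groups. The spread within groups is therefore too small an error, and p-values from it are too small. Of the 610 genes above 7 called further on, 107 were tied within both groups, and their p carries no information on replicates. This remark is repeated below for some of these genes only, so a gene without it may be tied too. Replicate 1 stood apart in both groups: 491 genes above 7 on control replicate 1 and 292 on mimic replicate 1 lay at least 0.3 log2 units from their group's median, against 6 to 31 on the other 4 arrays. The replicate 1 arrays of the groups deviated together, so a gene could be high on both. A change is the mean of the mimic arrays minus the mean of the control arrays in log2 units, after the 6 arrays were shifted to the same median over genes. With the values as deposited every change is 0.09 higher, so falls printed as -0.30 to -0.38 are then under the minimum size used for a call.

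Of 17 melanocytic genes measured, 13 lay above 7 and 4 below. Levels, as means over the 9 arrays, were 12.76 for TYR, 12.09 for PMEL, 9.82 for MITF and 9.65 for SOX10, whereas MC1R, S100A1, OCA2 and KIT lay at 6.99, 6.73, 4.44 and 4.36. Markers of other cells were mostly below 7: 10 of 11 keratinocyte genes, all 4 fibroblast genes, 5 of 6 endothelial genes and 6 of 7 leukocyte genes measured. The exceptions were KRT18 at 8.14, KDR at 8.37 and CD68 at 9.64. The mean over the keratinocyte list ranged from 4.69 to 4.72 on the control arrays and from 4.49 to 4.54 on the mimic arrays, and over the leukocyte list from 5.63 to 5.68 and from 5.58 to 5.62. The fibroblast list ranged from 4.34 to 4.62 and from 4.38 to 4.76, and the endothelial list from 5.79 to 5.83 and from 5.90 to 5.93. Most of these markers lie below 7, where probes near background limit what can be said. Members of a list also moved both ways, as with KRT1 at -0.69 and KRT8 at 0.38. The list means are therefore no measure of a cell type's share, and their part in the results was not tested. In bulk RNA, fewer cells of a type and less RNA per cell cannot be told apart.

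More genes fell than rose among those above 7. A gene was called when its limma adjusted p, over all 14812 genes, was under 0.05 and its change was at least 0.3 (1.23-fold) either way. By that rule 248 of 5588 genes rose (4.44%) and 362 fell (6.48%), together 10.9%. At 0.5 or more, 29 rose (0.519%) and 78 fell (1.40%). The balance depends on how arrays are levelled: falls made up 59.3% of the calls after the shift, but 23.3% with the values as deposited, where 513 rose and 156 fell. All 156 of those were among the 362. At 0.5 or more, 83 rose and 36 fell as deposited. SGPL1 changed by -1.07, ZNF287 by 0.97 and MPHOSPH10 by 0.92 after the shift, but by -0.99, 1.06 and 1.01 as deposited, so the largest change was a fall in the first case and a rise in the second.

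The threshold on p alone separated little. Without the minimum size 53.3% of the genes above 7 passed, and the 3 mimic arrays did not overlap the 3 control arrays in 62.7% of them. The same rule applied between the mimic doses called 286 genes higher at 0.5 nM (5.12%) and 241 lower (4.31%), and 39 and 30 at 0.5 or more (0.698% and 0.537%). Against control the same rule called 248 higher and 362 lower, so rises did not exceed those between doses while falls did. Falls of 0.5 or more were 78 against control and 30 between doses. The excess of falls depends on the levelling: as deposited 513 genes rose and 156 fell against control. By 0.5 or more, 36 genes fell and 83 rose as deposited. The counts between doses are from shifted arrays. The SD of the change over genes above 7 was 0.20 against control and 0.19 between doses, while the median SD within a group was 0.03.

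**Figure D1:**
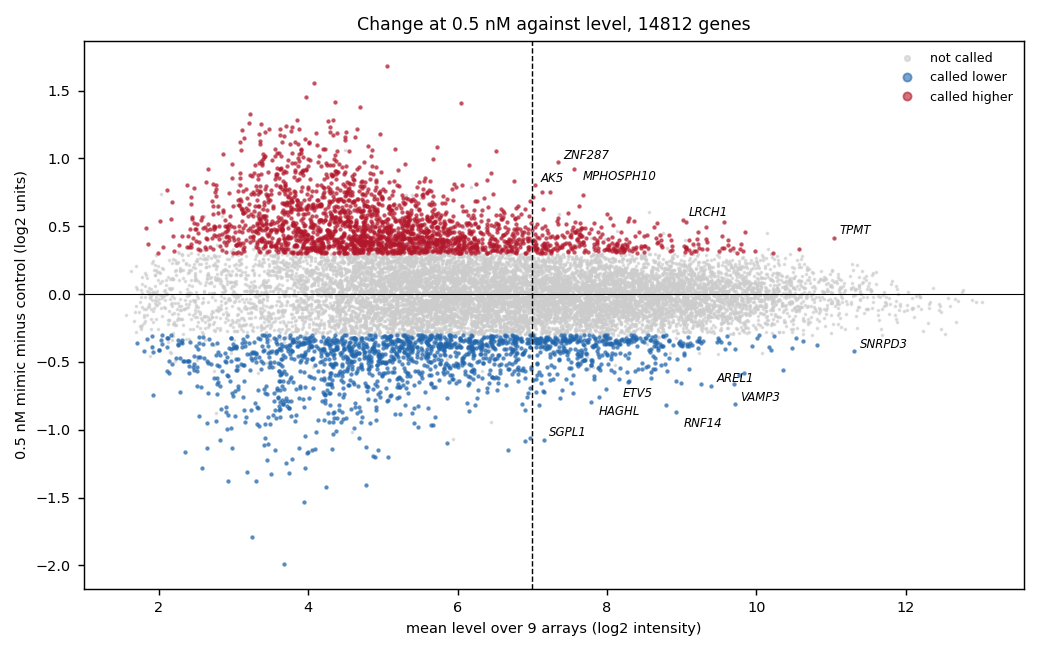
Change at 0.5 nM (mimic minus control, log2 units) against mean level over 9 arrays (log2 intensity) for 14812 genes, 1 point a gene, with called genes in red (higher) or blue (lower) and a dashed line at level 7. The scatter narrows with level, from an SD of 0.43 up to level 5 to 0.14 above level 10, and SGPL1 lies lowest to the right of the line.

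After the shift, the direction of the calls changed with level. Among the 4066 genes at level 5 or below, 1182 were called higher (29.1%) and 654 lower (16.1%), and the median change was 0.08. From 5 to 7 the counts were 744 and 556 of 5158 genes. From 7 to 8 they turned to 137 higher and 204 lower of 2183 genes, and from 8 to 9 to 71 and 113 of 1682. From 9 to 10 the directions were close, with 37 and 34 of 1099 genes, and above 10 there were 3 and 11 of 624. With the values as deposited rises outnumbered falls above 7 too, at 513 and 156, so the turn at level 7 depends on the levelling. Each change was also divided by the robust spread (the scaled median absolute deviation) of the changes of the 500 genes nearest in level, a description with no test. By that measure 22 genes above 7 stood at least 3 spreads above 0 and 55 at least 3 below, or 49 and 24 as deposited.

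The size of the calls varied across replicates, although the calls were made on the same arrays, which favours 1 sign in all of them. Of the 610, 179 of the 248 rises and 253 of the 362 falls reached 0.3 in every pair. Without replicate 1 of both groups 241 rose and 438 fell, and 554 of the 610 genes were called again. In replicate 1 alone 519 of the 610 changed by at least 0.3 the same way.

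The largest fall was that of SGPL1, sphingosine-1-phosphate lyase, the enzyme that breaks down the end product of sphingolipid catabolism. It lay at 7.76, 7.84 and 7.84 on the control arrays and at 6.77, 6.80 and 6.66 on the mimic arrays. Every mimic array was far below every control array, a 2.10-fold fall with a change of -1.07 ± 0.047 (SE; limma adjusted p = 2.00e-05), or -4.97 spreads of genes of like level. RNF14, a RING-finger ubiquitin ligase that also binds the androgen receptor, lay at 9.70, 9.53 and 9.58 on the control arrays and at 8.81, 8.72 and 8.67 on the mimic arrays. Replicate 1 was the highest array of both groups, and RNF14 fell 1.83-fold (limma adjusted p = 1.18e-04). ETV5, an ETS transcription factor induced by MAP kinase signalling, lay at 9.24, 9.18 and 9.08 on the control arrays and at 8.36, 8.36 and 8.34 on the mimic arrays. The mimic arrays were nearly equal while the control arrays spread more, and the change was -0.82 ± 0.045 (limma adjusted p = 5.18e-05).

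VAMP3, a vesicle SNARE of recycling endosomes, was among the brighter genes that fell. Its values lay at 10.32, 10.32 and 10.30 on the control arrays and at 9.75, 9.44 and 9.33 on the mimic arrays. The control arrays were tight and mimic replicate 1 fell least, giving -0.81 in all (limma adjusted p = 0.00232), -0.93 without replicate 1 and -0.57 in replicate 1 alone. ZNF92, a KRAB zinc-finger protein, lay at 7.18, 7.56 and 7.57 on the control arrays and at 6.55, 6.75 and 6.57 on the mimic arrays. Control replicate 1 was the lowest control, but stayed above all mimic arrays, and the change was -0.81 (limma adjusted p = 0.00369). HAGHL, a relative of a glyoxalase enzyme, lay at 8.26, 8.19 and 8.20 on the control arrays and at 7.42, 7.41 and 7.45 on the mimic arrays. The groups were separated by far more than their spread, at -0.79 (limma adjusted p = 4.24e-06).

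HRAS, a small GTPase at the head of the MAP kinase cascade, lay at 7.75 on all 3 of the control arrays and at 6.98, 6.98 and 6.97 on the mimic arrays. Before the shift its values were exactly equal within both groups, so that the SE of its 1.70-fold fall carries no information on replicates. AREL1, a HECT-type ubiquitin ligase, was also tied in both groups, at 9.71 on all 3 of the control arrays and at 9.04, 9.03 and 9.03 on the mimic arrays. It fell by 0.67 (-4.26 spreads of genes of like level). These were the only 2 of the 30 genes with the largest changes to be tied in both groups, against 14.8% of all genes above 7.

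FOS, a subunit of the AP-1 transcription factor, varied within the control group. It lay at 7.96, 8.34 and 8.72 on the control arrays and at 7.63, 7.62 and 7.48 on the mimic arrays. The control arrays spread widely, all above the mimic arrays, and the change of -0.76 ± 0.21 passed by a small margin (limma adjusted p = 0.0254). With the replicate number as a block the adjusted p was 0.0613. The call of FOS ended without control replicate 2 or without mimic replicate 1, 2 or 3, at -0.79 to -0.71 with limma adjusted p from 0.065 to 0.0809. The change was -0.98 without replicate 1 and -0.33 in replicate 1 alone.

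The other falls among the 15 largest lay between -0.73 and -0.70. GALC, the lysosomal enzyme that cleaves galactosylceramide, went from 7.72 ± 0.15 in control to 6.99 ± 0.0098 with the mimic (SD, n = 3 each). Control replicate 1, at 7.54, was nearer the mimic arrays than the other controls were, and the change was -0.73 (limma adjusted p = 9.45e-04). NKAP, a nuclear regulator of transcription, fell by 0.72 (limma adjusted p = 2.82e-05). TMBIM4, a membrane protein of the Bax inhibitor family, changed by -0.71 (limma adjusted p = 0.00181). MPG, the glycosylase that removes alkylated purines from DNA, changed by -0.71 (limma adjusted p = 0.0063), with -0.85 without replicate 1 and -0.42 in replicate 1 alone. DEPDC1B, a protein with a RhoGAP-like domain, changed by -0.70 (limma adjusted p = 9.54e-04).

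MIR181A1HG, the long noncoding host gene of a miR-181a hairpin, was higher on replicate 1 of both groups. Its values lay at 7.61, 7.06 and 7.09 on the control arrays and at 6.88, 6.32 and 6.39 on the mimic arrays. The excess of replicate 1 was about the same in both groups, and all 3 same-numbered differences were close to the mean of -0.72. The unblocked p was near the threshold (limma adjusted p = 0.0444) and that with the block was 3.17e-04. The call of MIR181A1HG ended without control replicate 1, 2 or 3 or without mimic replicate 2 or 3, at -0.82 to -0.54 with limma adjusted p from 0.0654 to 0.126.

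**Figure D2:**
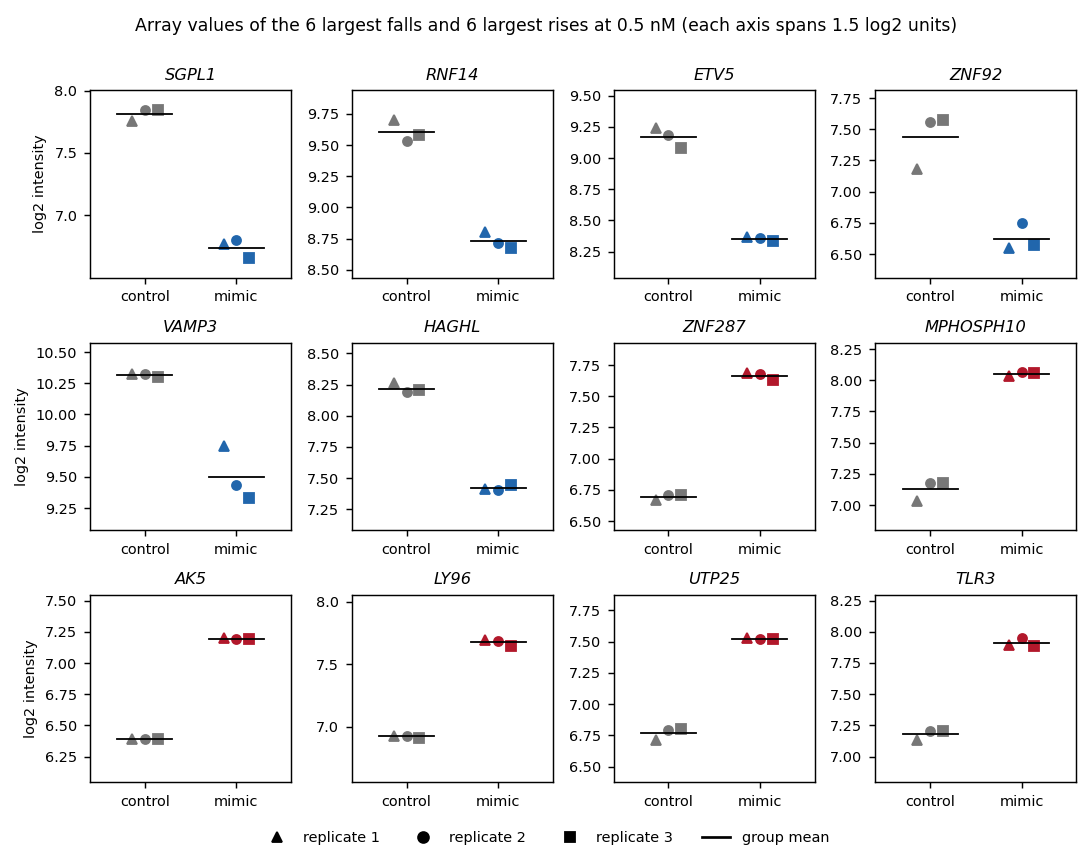
Array values (log2 intensity after the shift) of the 6 largest falls (blue) and 6 largest rises (red) in the 3 control and 3 mimic arrays, with the marker giving the replicate number and the line the group mean. The groups are apart in all 12 genes because only such genes were chosen. Replicate 1 departs most in VAMP3 with the mimic and in ZNF92 in control.

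ZNF287, a zinc-finger protein, had the largest rise. It lay at 6.67, 6.71 and 6.71 on the control arrays and at 7.69, 7.68 and 7.63 on the mimic arrays. The groups were apart by about 1 log2 unit with little spread, a 1.96-fold rise with a change of 0.97 ± 0.022 (limma adjusted p = 1.48e-06). MPHOSPH10, a protein of the U3 small nucleolar ribonucleoprotein that processes ribosomal RNA, lay at 7.04, 7.18 and 7.18 on the control arrays and at 8.03, 8.06 and 8.06 on the mimic arrays. Control replicate 1 was the lowest array and the change was 0.92 (limma adjusted p = 2.91e-05). UTP25, which serves in the same processing complex, changed by 0.75 (limma adjusted p = 6.22e-06). AK5, an adenylate kinase, lay at 6.39 on all 3 of the control arrays and at 7.20, 7.19 and 7.19 on the mimic arrays, with control values tied as deposited.

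LY96, the MD-2 subunit that presents lipopolysaccharide to TLR4, lay at 6.93, 6.93 and 6.91 on the control arrays and at 7.69, 7.69 and 7.65 on the mimic arrays. TLR3, an endosomal receptor for double-stranded RNA, lay at 7.13, 7.21 and 7.21 on the control arrays and at 7.90, 7.95 and 7.89 on the mimic arrays. The changes were 0.75 (limma adjusted p = 8.68e-07) in LY96 and 0.73 (limma adjusted p = 1.43e-05) in TLR3.

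TNRC6A, the GW182 protein that links Argonaute to the deadenylases, rose. It lay at 7.16 on all 3 of the control arrays and at 7.77, 7.75 and 7.74 on the mimic arrays, and the mimic arrays were 1.51-fold higher (limma adjusted p = 4.64e-07). FERMT2, kindlin-2, which activates integrins, lay at 6.86, 7.08 and 7.09 on the control arrays and at 7.42, 7.70 and 7.60 on the mimic arrays. Replicate 1 was the lowest array of both groups, and the change was 0.56 (limma adjusted p = 0.0064). HAS2, which makes hyaluronan at the cell surface, lay at 7.88, 7.87 and 7.86 on the control arrays and at 8.54, 8.44 and 8.31 on the mimic arrays, a change of 0.56 (limma adjusted p = 7.32e-04). LRCH1, a leucine-rich repeat protein, was the brightest of the 15 rises, at 8.70, 8.70 and 8.71 on the control arrays and at 9.26, 9.25 and 9.25 on the mimic arrays.

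The other rises among the 15 largest lay between 0.56 and 0.71. NAB1, a corepressor of EGR transcription factors, changed by 0.71 (limma adjusted p = 2.06e-04). QTRT2, a subunit of the enzyme that puts queuosine into tRNA, changed by 0.65 (limma adjusted p = 0.00412), with mimic replicate 2 the highest array at 8.18 against 7.83 and 7.82. THG1L, which adds a guanosine to histidine tRNA, changed by 0.56 (limma adjusted p = 0.00307). MBD1, a reader of methylated CpG, and THADA changed by 0.59 and 0.63 (limma adjusted p = 3.60e-05 and 9.13e-07).

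**Figure D3:**
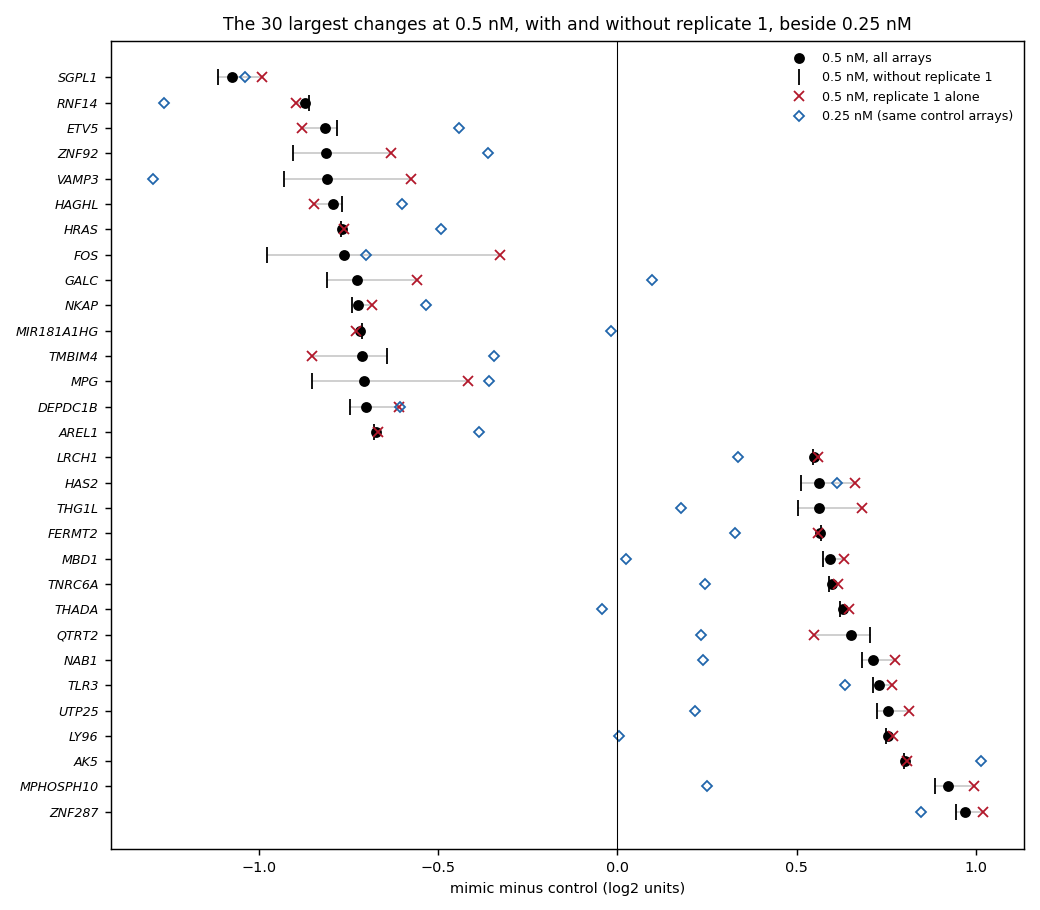
Changes (mimic minus control, log2 units) of the 15 largest falls and 15 largest rises at 0.5 nM over all arrays (black points), without replicate 1 (bars) and in replicate 1 alone (red crosses), beside the change at 0.25 nM against the same control arrays (open diamonds). All 30 were chosen with groups that do not overlap, which fixes their sign with and without replicate 1. FOS moves most between those settings, and the 0.25 nM values of GALC, MIR181A1HG, LY96, THADA and MBD1 lie within 0.1 of 0.

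The 0.25 nM cells were compared with the same control arrays, so the values of the doses are not independent and are only set side by side. SGPL1 changed by -1.07 at 0.5 nM and -1.04 at 0.25 nM, and AK5 by 0.80 and 1.01. RNF14 gave -0.87 and -1.26, and VAMP3 gave -0.81 and -1.30. In several genes the value at 0.25 nM was near 0. GALC gave -0.73 at 0.5 nM and 0.10 at 0.25 nM, LY96 gave 0.75 and 0.01, and THADA gave 0.63 and -0.04. At 0.25 nM the third array lacks some values because of damaged decimals, and the mean then rests on the arrays left.

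Brighter genes had smaller changes. The 5 brightest genes that rose were TPMT, a methyltransferase of thiopurine drugs, CTSC, the lysosomal protease cathepsin C, RBM12, an RNA-binding protein, VPS26A, a retromer subunit, and OXSR1, a kinase that controls ion transport. TPMT lay at 10.82, 10.82 and 10.58 on the control arrays and at 11.20, 11.16 and 11.11 on the mimic arrays. Control replicate 3 was the lowest array, and the change was 0.42 (limma adjusted p = 0.00612). The other 4 changed by 0.30 to 0.46, of which OXSR1 gave 0.46 (limma adjusted p = 0.00511). Without mimic replicate 1 CTSC changed by 0.29, under the minimum size, and RBM12, at 0.30, was at its edge.

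SNRPD3, a Sm protein of the spliceosome, was the brightest gene that fell. It lay at 11.47, 11.38 and 11.33 on the control arrays and at 10.98, 10.97 and 10.97 on the mimic arrays. The mimic arrays were tight and the control arrays were all higher, a change of -0.42 (limma adjusted p = 3.95e-04). At 0.25 nM the same gene stood at 0.06. The next were UCN2, the peptide hormone urocortin 2, ICAM1, an adhesion receptor for leukocytes, RB1, the retinoblastoma protein, and CDC16, a subunit of the anaphase-promoting complex. They changed by -0.37, -0.35, -0.32 and -0.40 (limma adjusted p = 0.00527, 4.40e-07, 0.0131 and 6.40e-04). The call of RB1 ended without control replicate 1 or without mimic replicate 3, at -0.30 to -0.27 with limma adjusted p from 0.0256 to 0.0414.

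Genes were also read by lists of pathways and complexes, 48 lists with 1555 different genes, of which 925 were measured and 725 lay above 7. Of the 725, 26 rose and 51 fell. With the values as deposited all 26 rises and 25 of the 51 falls were called. In 21 lists more members fell than rose, in 9 more rose, in 5 the numbers were equal and in 11 with members above 7 none was called; as deposited 6 lists had more falls. Each list is set beside the 4.44% and 6.48% of all genes above 7 and their median change of -0.01 (0.07 as deposited). The share called fell with level, from 6.28% higher and 9.34% lower at level 7 to 8 to 0.481% and 1.76% above 10. The lists differ in level, and whether their counts follow it was not tested. No list was tested as a set.

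Genes reported elsewhere as targets of miR-199a-3p had 1 call. Of 18, 15 were measured and 9 lay above 7, and of these none rose and 1 fell, with a median of -0.18 (-0.10 as deposited). MAP3K11, a kinase that activates JNK, lay at 7.94 on all 3 of the control arrays and at 7.51, 7.50 and 7.50 on the mimic arrays. Its values were exactly equal within both groups before the shift, so its p carries no information on replicates. The change was -0.44 (limma adjusted p = 1.96e-07), against -0.65 at 0.25 nM. MET, the hepatocyte growth factor receptor, lay at 9.52, 8.81 and 8.84 on the control arrays and at 9.26, 8.60 and 8.33 on the mimic arrays. Replicate 1 was the highest array of both groups and the groups overlapped, so that the change of -0.33 did not pass (limma adjusted p = 0.437), whereas with the replicate block the adjusted p was 0.0403.

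AXL, a receptor tyrosine kinase, lay at 8.71 on all 3 of the control arrays and at 8.74, 8.28 and 8.20 on the mimic arrays. Mimic replicate 1 was at the control level while the other mimic arrays were lower, and the change was -0.30 (limma adjusted p = 0.151), -0.46 without replicate 1 and 0.03 in replicate 1 alone. HOMER1, a scaffold protein, and TAOK1, a kinase, passed the p threshold but not the minimum size, at -0.25 and -0.17 (limma adjusted p = 0.0248 and 0.00189). CD44, the hyaluronan receptor, gave -0.18 (limma adjusted p = 0.0569) and YAP1, the Hippo effector, -0.06 (limma adjusted p = 0.1). MTOR, a kinase often named as a target, gave 0.01 at 0.5 nM (limma adjusted p = 0.65) and -0.40 at 0.25 nM. APOE, the lipoprotein component, gave 0.10 (limma adjusted p = 0.005).

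Among proteins of the microRNA pathway, 1 rose and 1 fell of 12 above 7, and as deposited the counts were the same. TNRC6A was the rise. DCP2, the enzyme that removes the cap of messenger RNA, lay at 8.47 on all 3 of the control arrays and at 8.03, 8.03 and 7.83 on the mimic arrays, with all mimic arrays lower (-0.51, limma adjusted p = 0.00119; -0.97 at 0.25 nM). TNRC6C, a relative of TNRC6A, gave 0.19 and EDC4, a decapping scaffold, gave -0.22. Argonaute genes and DICER1 had no row with 1 symbol and were not analysed here.

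**Figure D4:**
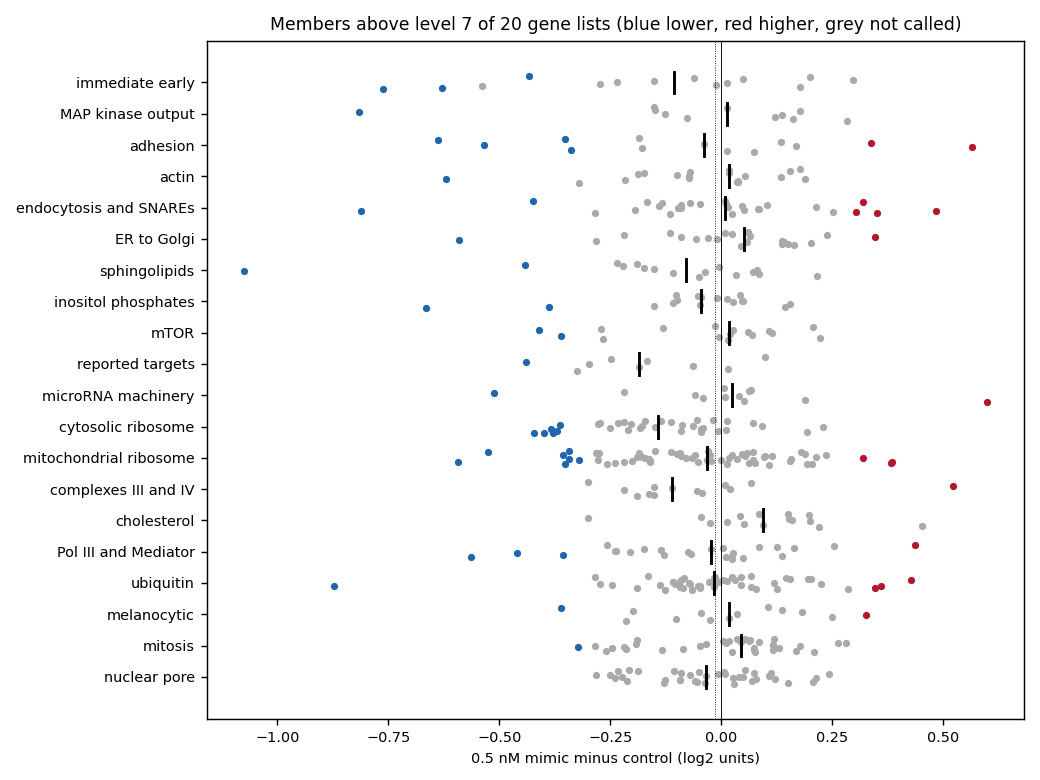
Changes at 0.5 nM (mimic minus control, log2 units) of the members above level 7 of 20 gene lists, 1 point a gene, red where called higher, blue where called lower and grey otherwise, with a black bar at each list's median and a dotted line at the median of all genes above 7. The cytosolic ribosome, the reported targets and the measured genes of respiratory complexes III and IV are among the lists with medians below -0.1, and cholesterol genes lie above the dotted line at 0.09.

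Immediate early genes, which respond within minutes to growth signals, included 3 falls and no rise among 14 above 7 (median -0.11, or -0.02 as deposited, with 2 falls and 1 rise). Besides FOS, FOSB lay at 7.01, 7.44 and 7.73 on the control arrays and at 6.71, 6.82 and 6.76 on the mimic arrays. DUSP1, a phosphatase that switches off MAP kinases, lay at 7.94, 7.97 and 7.97 on the control arrays and at 7.53 on all 3 of the mimic arrays. Both were lower on all mimic arrays, with changes of -0.63 (limma adjusted p = 0.0382) and -0.43 (limma adjusted p = 1.31e-06). The call of FOSB ended without control replicate 2 or 3 or without mimic replicate 1, 2 or 3, at -0.66 to -0.46 with limma adjusted p from 0.0577 to 0.11. JUN, the partner of FOS, gave -0.54 and did not pass (limma adjusted p = 0.0828), with -0.71 without replicate 1 and -0.19 in replicate 1 alone. MYC gave 0.30 and KLF10 0.20. Of the 11 MAP kinase output genes above 7, ETV5 alone was called, while DUSP4 gave 0.28, FOSL1 0.18 and IER3 -0.15; as deposited 1 rose.

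Adhesion genes moved in both directions, with 2 rises and 4 falls of 13 above 7, or 2 and 2 as deposited. L1CAM, a neural adhesion molecule, lay at 9.50, 9.39 and 9.39 on the control arrays and at 9.10, 8.66 and 8.61 on the mimic arrays. BCAR1, the focal adhesion adaptor p130Cas, lay at 7.36 on all 3 of the control arrays and at 6.83, 6.82 and 6.82 on the mimic arrays. Both fell, with changes of -0.64 (limma adjusted p = 0.0139) and -0.54 (limma adjusted p = 1.30e-07), beside -0.97 and -0.07 at 0.25 nM. PXN, paxillin, and MCAM, a melanoma adhesion molecule, changed by -0.34 and -0.35 (limma adjusted p = 1.46e-05 and 0.00732). The call of MCAM ended without mimic replicate 1, at -0.28 with a limma adjusted p of 0.00168. FERMT2 and TNS3, a tensin, rose, the latter by 0.34 (limma adjusted p = 3.88e-04). Most integrin genes had no row with 1 symbol and were not analysed here.

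Of 19 actin regulators above 7, CD2AP, an adaptor of membrane and actin, alone was called, at 9.13, 9.05 and 9.03 on the control arrays and at 8.47, 8.46 and 8.42 on the mimic arrays. Its change was -0.62 (limma adjusted p = 2.98e-05; -0.94 at 0.25 nM). CFL2, a cofilin, gave -0.32 (limma adjusted p = 0.183), and with the replicate block its adjusted p was 0.0493; CTTN and RDX gave 0.19 and 0.18. Of 10 matrix genes above 7 none was called, between -0.25 (MMP14) and 0.16 (THBS1), and of 8 genes of the undifferentiated melanoma state none was called.

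Endosomal and SNARE genes held 4 rises and 2 falls of 28 above 7 (5 and 2 as deposited). Besides VAMP3, VPS29, a retromer subunit, fell by 0.43 (limma adjusted p = 0.00645). Another retromer subunit, VPS26A, rose by 0.32. VAMP4, a SNARE of the trans-Golgi network, lay at 7.39 on all 3 of the control arrays and at 7.88, 7.88 and 7.87 on the mimic arrays and rose by 0.48 (limma adjusted p = 1.59e-07), EPN2, an epsin, by 0.35 (limma adjusted p = 2.62e-04) and EEA1, an early endosome tether, by 0.30 (limma adjusted p = 0.00241). The call of EEA1 ended without mimic replicate 2 or 3, at 0.27 to 0.29 with limma adjusted p from 0.00678 to 0.0124. VAMP4 was tied in both groups, so its p carries no information on replicates. In the ER-to-Golgi list of 22, ARF5, a Golgi GTPase, lay at 7.45, 7.51 and 7.51 on the control arrays and at 6.87, 6.93 and 6.89 on the mimic arrays and YKT6, a SNARE, at 8.08 on all 3 of the control arrays and at 8.43, 8.42 and 8.42 on the mimic arrays. The former fell (-0.59, limma adjusted p = 1.65e-05) and the latter rose (0.35, limma adjusted p = 3.74e-07), while ARF1 gave -0.28 and KDELR3 0.24.

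In sphingolipid metabolism 2 of 16 genes above 7 fell and none rose (2 and 1 as deposited). Besides SGPL1, ORMDL1, which restrains the first enzyme of sphingolipid synthesis, lay at 8.85, 9.02 and 9.06 on the control arrays and at 8.54, 8.54 and 8.53 on the mimic arrays. It changed by -0.44 (limma adjusted p = 0.00186), and CERS2 and SGMS1 gave 0.21 and 0.08. In inositol phosphate metabolism 2 of 17 fell, as deposited too. ITPK1 and IPMK, kinases of inositol phosphates, changed by -0.66 (limma adjusted p = 3.82e-07) and -0.39 (limma adjusted p = 2.75e-07), beside -1.10 and 0.10 at 0.25 nM. Cholesterol genes had no call among 15, with a median of 0.09 (0.18 as deposited, with 1 rise). HMGCS1, which makes the precursor of mevalonate, gave 0.45 (limma adjusted p = 0.104), and with the replicate block its adjusted p was 0.00714. NSDHL gave -0.30 and ACAT2 0.22.

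In the mTOR list 2 of 16 genes above 7 fell and none rose (1 and 1 as deposited). RRAGD, a Rag GTPase that brings mTORC1 to lysosomes, and TSC2, an inhibitor of that complex, changed by -0.41 (limma adjusted p = 2.34e-05) and -0.36 (limma adjusted p = 3.32e-07). MAPKAP1, a subunit of mTORC2, gave 0.22. In the MET pathway none of 10 was called. Lysosome and autophagy genes had 1 call each, MCOLN1, a lysosomal calcium channel, at -0.32 (limma adjusted p = 0.0194) and ATG16L1, of the complex that lipidates LC3, at 0.31 (limma adjusted p = 0.0123). The call of MCOLN1 ended without control replicate 2 or 3 or without mimic replicate 1, 2 or 3, at -0.32 to -0.28 with limma adjusted p from 0.0578 to 0.0613. The call of ATG16L1 ended without control replicate 1 or without mimic replicate 2, at 0.26 to 0.27 with limma adjusted p from 0.0178 to 0.0368.

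Cytosolic ribosomal proteins had 6 falls and no rise of 34 above 7, although as deposited 1 fell and 1 rose. Their median was -0.14 (-0.06 as deposited), beside -0.01 for all genes above 7 (0.07 as deposited). RPL6 lay at 7.61, 7.64 and 7.65 on the control arrays and at 7.17, 7.27 and 7.20 on the mimic arrays and RPS3 at 7.52 on all 3 of the control arrays and at 7.17, 7.16 and 7.15 on the mimic arrays. All mimic arrays were lower in both, with changes of -0.42 (limma adjusted p = 1.74e-04) and -0.36 (limma adjusted p = 3.23e-07), and RPL9, RPL24, RPL8 and RPL14 changed by -0.40, -0.38, -0.38 and -0.37. The call of RPL9 ended without control replicate 2 or 3 or without mimic replicate 1, 2 or 3, at -0.45 to -0.31 with limma adjusted p from 0.0503 to 0.0983. RPS3 was tied in both groups, so its p carries no information on replicates. RPL35A and RPL10A gave 0.23 and 0.19. Ribosomal protein genes have many processed pseudogenes, and probes may read both.

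Mitochondrial ribosomal proteins gave 3 rises and 7 falls of 63 above 7, or 5 and 2 as deposited, so the balance turned with the levelling. MRPL20 lay at 7.37 on all 3 of the control arrays and at 6.78, 6.78 and 6.77 on the mimic arrays, a change of -0.59 (limma adjusted p = 1.06e-07), and MRPS28 changed by -0.53 (limma adjusted p = 4.17e-04). MRPL14 and MRPL19 both rose by 0.38 (limma adjusted p = 1.94e-05 and 9.40e-06). Of 76 respiratory chain genes listed 15 were measured, all of complexes III and IV, and 13 lay above 7. COX7A2 rose by 0.52 (limma adjusted p = 2.67e-07) and was the only call among them. In glycolysis LDHA was the only call of 8, at -0.36 (limma adjusted p = 0.0338). The call of LDHA ended without control replicate 1, 2 or 3 or without mimic replicate 2 or 3, at -0.38 to -0.28 with limma adjusted p from 0.0747 to 0.0986. Of 12 hypoxia targets, ADM, the vasodilator peptide adrenomedullin, fell (-0.57, limma adjusted p = 1.15e-06). BNIP3 gave 0.45 and ANGPTL4 -0.44, not passing (limma adjusted p = 0.161 and 0.287), while with the replicate block their adjusted p-values were 0.00792 and 0.0114.

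Among genes of RNA polymerase III and of Mediator 1 rose and 3 fell of 25 above 7 (2 and 2 as deposited). POLR3G, a polymerase III subunit, lay at 10.71 on all 3 of the control arrays and at 10.20, 10.16 and 10.07 on the mimic arrays and fell (-0.56, limma adjusted p = 9.70e-05), and the Mediator subunit MED11 changed by -0.46 (limma adjusted p = 0.00865). CDK8, the Mediator kinase, rose by 0.44 (limma adjusted p = 6.51e-06). In ubiquitin conjugation 3 rose and 1, RNF14, fell of 49. RNF185, a ligase of the endoplasmic reticulum, and RNF4, which targets SUMO-modified proteins, changed by 0.43 and 0.36 (limma adjusted p = 0.00482 and 3.33e-07), and with the mean of its rows in place of the brightest RNF185 gave 0.18. In the spliceosome SNRPD3 alone was called of 31, while SNRNP70 gave -0.43 (limma adjusted p = 0.0791), with an adjusted p of 0.007 with the replicate block.

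Genes of proliferation had few calls, and so had all genes at the level of the mitosis list. The measured mitosis genes had a median level of 9.19, and of all genes at level 9 to 10, 3.37% rose and 3.09% fell. In the mitosis list 1 of 35 fell and none rose, TTK, a spindle checkpoint kinase (-0.32, limma adjusted p = 7.98e-04), with CENPN at 0.28 and a median of 0.04, although as deposited 2 rose and 0 fell. In DNA replication none of 24 was called, from -0.28 (RRM1) to 0.33 (MCM7, limma adjusted p = 0.266, and 0.00498 with the replicate block). In the nuclear pore list none of 38 was called by the shifted values, and 2 rose as deposited. Among apoptosis genes BCL2L1, which protects mitochondria, changed by -0.35 (limma adjusted p = 0.00187) and was the only call of 15, while MCL1, of the same family, gave 0.40 (limma adjusted p = 0.184, and 0.00628 with the replicate block).

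Melanocytic genes had 1 rise and 1 fall of 13 above 7, or 2 and 0 as deposited. SOX10, a master regulator of the lineage, lay at 9.47 on all 3 of the control arrays and at 9.79, 9.77 and 9.82 on the mimic arrays. ERBB3, a receptor that SOX10 is known to induce, lay at 9.47 on all 3 of the control arrays and at 9.11, 9.11 and 9.10 on the mimic arrays. The former rose by 0.32 (limma adjusted p = 2.90e-05) and the latter fell by 0.36 (limma adjusted p = 4.01e-07). MITF gave -0.21 and TYRP1, an enzyme of pigment synthesis, 0.25. CD68, the leukocyte marker above 7 and a lysosomal protein, changed by -0.36 (limma adjusted p = 0.00218).

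Interferon-induced genes, read here because small RNAs can trigger them, had 1 rise and no fall of 13 above 7 (median 0.00), or 2 rises as deposited. IFIH1, a sensor of double-stranded RNA, lay at 7.20 on all 3 of the control arrays and at 7.63, 7.63 and 7.62 on the mimic arrays and rose by 0.43 (limma adjusted p = 2.12e-07). RIGI, the related sensor, gave -0.21, IFIT2 -0.28 and BST2 0.24. In the NF-kB list, with 3 above 7, ICAM1 fell, and in the heat shock list none of 8 was called.

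Other pathway lists had 0 to 3 calls each. Among them medians below -0.1 were those of NRF2 targets (-0.15), the TGF-beta list (-0.13) and p53 targets (-0.12). As deposited these were -0.07, -0.04 and -0.03. Of 11 p53 targets, TIGAR, which lowers glycolysis, and TP53INP1 fell (-0.34 and -0.34; limma adjusted p = 4.76e-04 and 0.027) and CCNG1, a cyclin, rose (0.32, limma adjusted p = 0.00177). The call of TP53INP1 ended without control replicate 1, 2 or 3 or without mimic replicate 3, at -0.36 to -0.25 with limma adjusted p from 0.0125 to 0.0747. The call of CCNG1 ended without control replicate 1, at 0.27 with a limma adjusted p of 1.91e-05. Of 10 NRF2 targets, PON2, a lactonase, lay at 10.16 on all 3 of the control arrays and at 9.51, 9.49 and 9.49 on the mimic arrays and fell (-0.66, limma adjusted p = 2.30e-07). HMOX1, which degrades haem, rose by 0.50 at the edge of the threshold (limma adjusted p = 0.0497). The call of HMOX1 ended without control replicate 1, 2 or 3 or without mimic replicate 2 or 3, at 0.40 to 0.56 with limma adjusted p from 0.0758 to 0.138. PRDX1, a peroxidase, gave -0.58 (limma adjusted p = 0.274, and 0.00756 with the replicate block).

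In the TGF-beta list of 8, the inhibitor SMAD7 rose (0.42, limma adjusted p = 2.24e-07) and SKIL, a corepressor of SMADs, fell (-0.35, limma adjusted p = 6.92e-05). SMAD7 was tied in both groups, so its p carries no information on replicates. In the Wnt list of 17, RNF43, which removes Frizzled receptors, rose (0.45, limma adjusted p = 0.0153), and as deposited 4 rose. The call of RNF43 ended without mimic replicate 2 or 3, at 0.45 with limma adjusted p from 0.0502 to 0.0516. Of 7 Hippo targets MYOF, a membrane repair protein, rose (0.37, limma adjusted p = 0.036). The call of MYOF ended without control replicate 1 or 2 or without mimic replicate 2 or 3, at 0.27 to 0.42 with limma adjusted p from 0.0432 to 0.107. Of 12 genes of the unfolded protein response EIF2AK3, the PERK kinase, rose (0.36, limma adjusted p = 3.46e-07), and of 10 ATF4 targets ATF4 itself fell (-0.30, limma adjusted p = 1.38e-06), under the minimum size with quantile normalization (-0.29). Of 17 tRNA synthetases CARS1 rose (0.33, limma adjusted p = 0.016). The call of CARS1 ended without control replicate 2 or without mimic replicate 1, at 0.25 to 0.33 with limma adjusted p from 0.014 to 0.0512. None of 12 translation factors and none of 7 reference genes above 7 was called, the latter between -0.11 (IPO8) and 0.11 (TBP). The proteasome list had no member with a row of 1 symbol and was not analysed here.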

How the data were processed

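Total RNA of WM266-4 cells was hybridised as biotin-labelled whole-transcript target, per the labels' protocols. The deposited values are log2 intensities of 44629 rows. Software named by the submitters' processing notes is oligo, affy and RMA, while a version, a sequence of steps or a build is not given in the sources used here. The platform annotation gives 1 symbol to 15835 rows, several to 0 and none to 28794; all 15835 gene IDs matched the reference gene table, and the brightest row of each gene was kept (651 genes had several). In the third 0.25 nM array, values of fewer than 10 digits were left out (19.1% of genes), because zeros after the point are missing there; only 0.25 nM values and mean levels are touched.

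The 6 arrays were shifted to the same median and fitted with limma 3.58.1 in R 4.3.3 (lmFit, eBayes without trend, two-sided, Benjamini-Hochberg over 14812 genes). The script was tested on simulated data. The number of arrays, 3 per group, limits the precision. Deviations of same-numbered arrays correlated at 0.74, 0.63 and 0.50, and on this ground the number was used as a block. The pairing is read from the data, since the labels give only the number. It sets replicate 1 apart without telling replicates 2 and 3 from each other: control 3 with mimic 2 gave 0.58 and control 2 with mimic 3 gave 0.49. Deviations within a group sum to 0, so the correlations are not separate evidence of pairing. Adjusted p-values with the block rest on a pairing taken from the same arrays. They are no support for a gene that the main rule did not call.

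Named genes are the 15 largest rises and falls among called genes above 7 whose groups do not overlap, the 5 brightest called each way, the 2 extremes of each list each way, and the listed targets. Other called list members, JUN and the marker genes were named after their values were seen. Members and lists were chosen with earlier results of these data known. Alternatives were the scaling, filters, fit, size threshold, rows per gene, replicate block and each array left out.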

Additional observations from a re-analysis of the deposited data

Results flagged for a closer look

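Rows to which the platform annotation gives no gene name were not used in the comparison, and they too differed between mimic and control. Of 3736 such rows with a mean above 7 over the 6 arrays, 142 were called higher (3.80%) and 249 lower (6.66%) at 0.5 nM by the same rule, with limma and the arrays shifted by the same amounts. The shares for genes with a symbol were 4.44% and 6.48%. These rows are named here by nothing but their place outside the annotation, and what they measure was not analysed.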

How the results depend on the processing

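The counts of 248 genes higher and 362 lower kept within 1.5 times under quantile normalization, a median over genes above 7, all 9 arrays in the fit, an intensity trend, a fit on genes above 7 alone and the mean of all rows of a gene. With the replicate block 268 rose and 382 fell. Leaving out 1 array gave 226 to 264 higher and 322 to 413 lower, and leaving replicate 1 out of both groups, an alternative chosen after seeing the data, gave 241 and 438. With the values as deposited 513 rose and 156 fell, 6 lists had more falls than rises in place of 21, and 49 genes stood 3 spreads above and 24 below genes of like level in place of 22 and 55; each array set then keeps its own median. Above level 6 the counts were 500 and 605, and with no filter on level 2174 and 1572. A minimum change of 0.5 left 29 and 78 genes and 12 lists with more falls. The adjusted p alone gave 1354 and 1623, and limma's treat against 1.2-fold 153 and 225. No called gene named in the text changed sign in any alternative. The replicate block ended the call of FOS among the genes named and added calls only where the text says so or for genes it does not name. The within-group error is too small because values tie, so the p-values rank genes rather than bound the false calls. Changes near 0.3 are within the range seen between doses, where 39 genes were also higher and 30 lower by 0.5 or more. Against control 29 rose and 78 fell by that much. Probes near background limit what can be said below level 7.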

Other observations

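The calls were spread over transcript classes. Of 5344 protein-coding genes above 7, 238 rose (4.45%) and 347 fell (6.49%). Of 101 long noncoding RNA genes 6 rose (5.94%) and 4 fell (3.96%). Of 67 transcribed pseudogenes 2 rose (2.99%) and 6 fell (8.96%), and of 53 microRNA genes 2 rose (3.77%) and 5 fell (9.43%). The shares over all genes above 7 were 4.44% and 6.48%. These counts are after the shift, and no class was tested. None of 7 small nuclear RNA genes passed the rule, and their median change was -0.18. The microRNA genes that rose were MIR185 (0.33, limma adjusted p = 0.00429) and MIR891A (0.37, limma adjusted p = 0.00785). MIR570 and MIR486-1 changed by -0.46 and -0.42 (limma adjusted p = 8.11e-04 and 2.29e-07). The call of MIR185 ended without control replicate 2, at 0.30 with a limma adjusted p of 0.0163. The call of MIR891A ended without control replicate 3, at 0.30 with a limma adjusted p of 1.11e-04. With the mean of its rows MIR486-1 gave -0.23. Rows of microRNA genes on this array may read the precursor, and the mature forms were not measured apart. These genes were named after their values were seen.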
